A study of Homo sapiens with 6 samples.

Results

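Keratins are the proteins of the intermediate filaments of epithelial cells, and their genes lie in a cluster on each of chromosomes 12 and 17. The members described here are the protein-coding genes of the GENCODE annotation on hg19 whose symbol is KRT followed by a number. Keratin-associated protein genes (KRTAP) were left out by this rule. It found 55 of 20176 protein-coding genes, 27 on chromosome 12 and 28 on chromosome 17. Their starts fell in 16 bins of 100 Kb, 9 on chromosome 12 and 7 on chromosome 17, and genes in one bin share its score. A further 10 bins on each side of each cluster were followed with them.

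The scores came from tethered conformation capture (TCC, a form of Hi-C with ligation on a solid surface) in T47D, an established estrogen receptor-positive breast cancer line. The parental cells were hormone-starved for 72 h and taken either without E2 (estradiol, T0) or after 1, 4, 16 or 24 h of 100 nM E2 (T1, T4, T16 and T24). The sixth library was from tamoxifen-resistant T47D cells (TamR), which the labels call untreated and the methods describe as kept in 100 nM tamoxifen. Each condition had 1 library, so differences between conditions have no replicate check and no test was made. The range over the 5 parental libraries, which holds any E2 effect, served only as a yardstick. Each 100 Kb bin has a first eigenvector score, positive in compartment A (open, active chromatin) and negative in compartment B (closed, inactive chromatin). Scores are printed here multiplied by 1000, and percentiles rank a bin among all scored bins of its own library. Scores are scaled within a library, so percentiles were given beside differences between libraries. The files give no depth for a score. A compartment score does not measure expression, so the luminal type of these cells could not be checked by its keratins.

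A keratin filament is built from pairs of a type I (acidic) and a type II (basic) keratin. The type II genes lie on chromosome 12 and the type I genes on chromosome 17, except KRT18, a type I gene that lies beside its type II partner KRT8 at the end of the chromosome 12 cluster. In the breast, KRT8, KRT18 and KRT19 mark the luminal cells that line the ducts. KRT5, KRT14, KRT15 and KRT17 were grouped here as basal keratins, for the basal layer of epithelia in general and not of the breast alone. Other members are used by stratified epithelia such as the epidermis, by the inner root sheath of the hair follicle, or by the hard fibres of hair and nail.

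All 16 keratin bins lay in compartment A in all 6 libraries, so luminal, basal and hair keratins were not separated by compartment. Among all 27898 bins scored in all 6 libraries, 38.2% were in A throughout. The share was 62.7% among the 10584 bins with a protein-coding gene start, 44.0% among the bins of chromosome 12 and 74.0% among those of chromosome 17. No keratin bin changed sign during the E2 course, where 7.11% of all scored bins, 7.11% of those with a gene start, 8.05% of those of chromosome 12 and 1.30% of those of chromosome 17 did. None changed between T0 and TamR, where the shares were 13.9%, 12.3%, 10.7% and 5.73% in the same order. The keratin bins began far from the border, at T0 scores of 8.50 to 14.08. In the 2655 bins with T0 scores in that range, the lowest difference from T0 was -3.73 with E2 and -6.93 in TamR. None of those bins changed sign either, so the lack of sign changes is not particular to keratin bins. Neighbouring bins are not independent, and 16 bins in 2 clusters are fewer than 16 separate observations. The 40 flanking bins and the 3 bins inside the chromosome 17 cluster that hold only KRTAP genes were also in A in all 6 libraries. At T0 the keratin genes had a median percentile of 95.2, from 89.5 to 99.0, and in TamR it was 96.9, from 94.0 to 99.3.

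**Figure D1:**
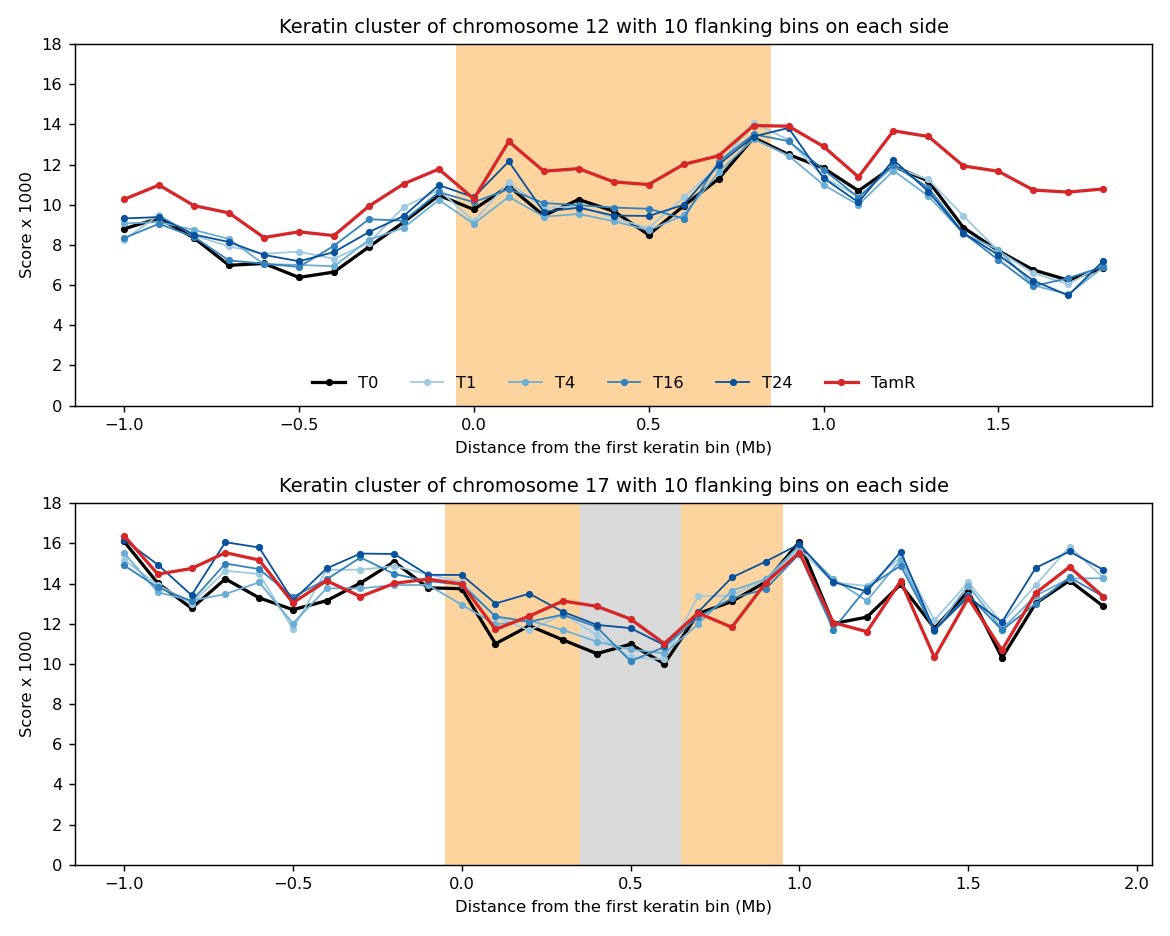
First eigenvector score multiplied by 1000 in each library (lines, 1 point per 100 Kb bin) against the distance in Mb from the first keratin bin, for the clusters of chromosome 12 (top) and chromosome 17 (bottom). Orange marks keratin bins and grey the 3 bins with only KRTAP genes, every point is above 0, and the TamR line runs above the parental lines over most of the chromosome 12 window.

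**Figure D2:**
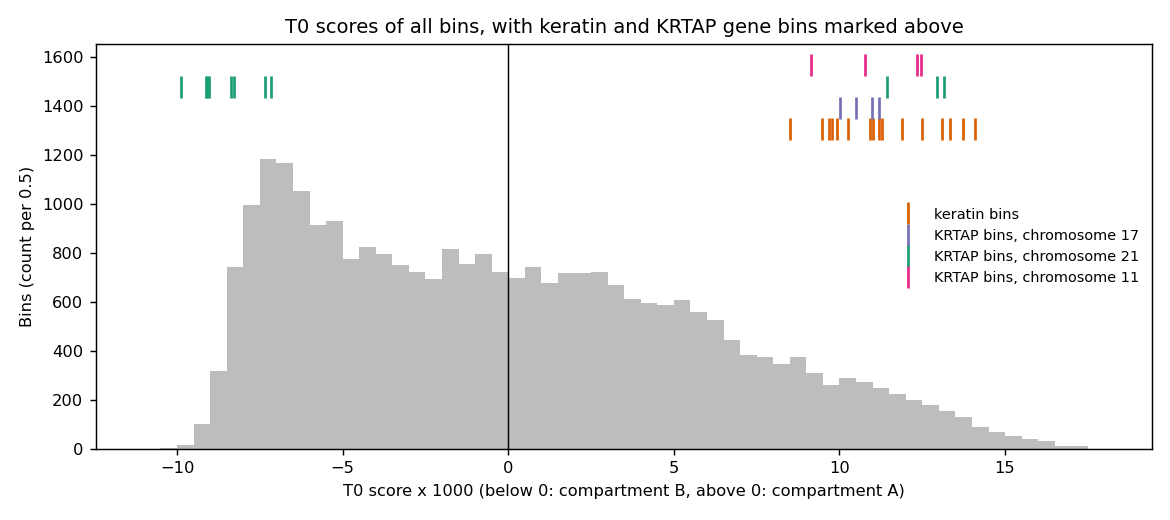
Histogram of the T0 scores (multiplied by 1000) of all bins with a score, in steps of 0.5, with ticks above it for the keratin bins and for the bins of KRTAP genes on chromosomes 17, 21 and 11. The keratin ticks lie between 8.50 and 14.08, in the upper tail, and only chromosome 21 has ticks below 0.

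The luminal pair KRT8 and KRT18 shared the bin at chr12:53300001-53400000. Its scores were 13.33 at T0, 14.08 at T1, 13.27 at T4, 13.50 at T16, 13.39 at T24 and 13.94 in TamR. It was the highest of the 9 keratin bins of chromosome 12 in each of the 6 libraries, and the TamR score lay inside the parental range. KRT8 has a gene record that starts in this bin and a canonical transcript that starts 1 bin to the left, at 53298860, in a bin that scored 11.29 at T0 and 12.43 in TamR, also in A. KRT19, the third luminal keratin, starts on chromosome 17 in the bin at chr17:39600001-39700000, which scored 13.11 at T0, 13.41 at T1, 13.64 at T4, 13.26 at T16, 14.30 at T24 and 11.82 in TamR. The TamR score was the lowest of the 6 and lay below the parental range.

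KRT5, the type II keratin of basal cells, started in the bin at chr12:52900001-53000000. Its scores were 9.68 at T0, 9.34 at T1, 9.18 at T4, 9.86 at T16, 9.46 at T24 and 11.13 in TamR, below those of the KRT8 and KRT18 bin in every library. KRT14, the type I partner of KRT5, and KRT17, a keratin of basal cells and skin appendages, shared the bin at chr17:39700001-39800000, which scored 14.08 at T0, 14.21 at T1, 14.22 at T4, 13.72 at T16, 15.10 at T24 and 14.03 in TamR. That bin was above the KRT19 bin in all 6 libraries. KRT15, a keratin of the basal layer and of the hair follicle bulge, started in the same bin as KRT19, so at this resolution the luminal and the basal gene cannot be told apart.

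By group, the 3 luminal genes, in 2 bins, had a median T0 percentile of 98.3 and the 4 basal genes, in 3 bins, 98.5. In TamR the medians were 99.2 and 98.1. The difference luminal minus basal was -0.23 percentile points at T0 and turned to 0.29 at T1, so the data gave no stable order of the pair. The basal genes spread from 92.3 (KRT5) to 99.0 (KRT14 and KRT17) at T0, which is wider than the step between the group medians. The 17 hair keratins, in 6 bins, had a median percentile of 97.3 at T0 and 97.8 in TamR. At T0 the luminal median exceeded the hair median by 1.02 points over genes and by 3.19 over distinct bins. Over genes, the luminal median is the value of the bin that KRT8 and KRT18 share. Within the hair group the chromosomes lay further apart than the luminal and hair medians did. The 11 hair keratins of chromosome 17, in 3 bins, had a T0 median of 97.3, the value of the bin that holds 6 of them. The 6 of chromosome 12, also in 3 bins, had 92.6. Of the hair keratins, those with the lowest parental scores were KRT83, KRT84 and KRT85 (9.46 at T0 and 11.67 in TamR), and those with the highest were KRT32, KRT35 and KRT36, which share the KRT19 bin.

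In the other groups too, the lowest genes at T0 lay on chromosome 12 and the highest on chromosome 17. The stratified keratins lay in 8 bins, the root sheath keratins in 4 and the remaining keratins in 5. The 13 keratins of stratified epithelia had a median T0 percentile of 93.4, from KRT1 and KRT2 (89.5), epidermal keratins of chromosome 12, to KRT9 and KRT16 (99.0), keratins of palm and sole and of wounded epidermis, in the KRT14 bin. The 9 root sheath keratins also had a T0 median of 93.4, with KRT73 lowest (89.5) and KRT25 to KRT28 highest (94.9). KRT7, a keratin of simple and glandular epithelia, was at 94.7 at T0 and 98.6 in TamR, and KRT20, a gut and urothelial keratin, at 96.4 and 97.6. The remaining 7 keratins ran from KRT77 (89.5 at T0) to KRT24 and KRT222 (98.7), the latter being the first keratin gene of the chromosome 17 cluster. KRT80, at the opposite edge of the chromosome 12 cluster from KRT8, scored 9.76 at T0 and 10.29 in TamR.

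**Figure D3:**
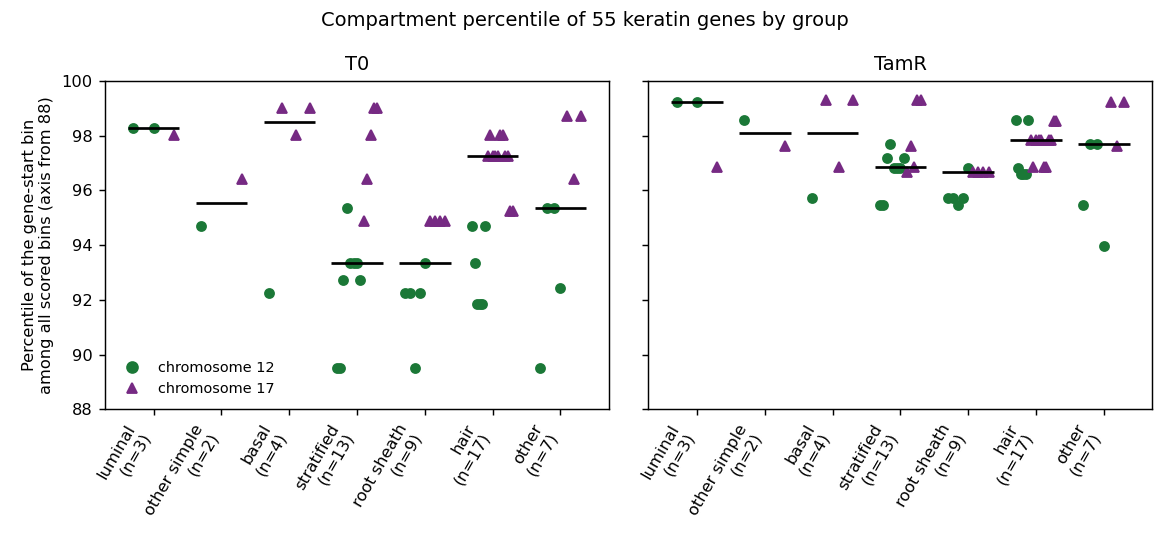
Percentile of the gene-start bin of each of the 55 keratin genes (points, circles for chromosome 12 and triangles for chromosome 17) by group at T0 (left) and in TamR (right), on an axis that starts at 88. Black lines are group medians, genes in one bin have the same value, and circles lie lower than triangles in most groups at T0.

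Partner keratins therefore differed in score where they lie on different chromosomes. At T0, KRT5 was at percentile 92.3 and KRT14 at 99.0. KRT1 and KRT10, the pair of the suprabasal epidermis, were at 89.5 and 94.9. KRT6A and KRT16, the pair of wounded epidermis, were at 93.4 and 99.0. The type I partner was the higher one at T0 in these pairs and in the pairs KRT4 with KRT13 and KRT3 with KRT12. In TamR, KRT5 and KRT14 were at 95.7 and 99.3, and KRT4 was above KRT13 (97.7 and 96.9). KRT8 and KRT18 share a bin and cannot differ.

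Promoter sequence differed between members whose bins were all in A. RefSeq promoters (250 bases before to 50 after the start, GRCh38.p14) were found for 34 of the 55 genes as 38 entries, and each entry matched GRCh37 exactly once. The sequences below are the 120 bases before the RefSeq start of 6 of these genes, all on the minus strand, read 5′ to 3′, with the letters TATAAA in capitals. They were chosen as the only luminal, other simple and basal genes with an entry (KRT8, KRT20 and KRT5) and, after the matches were seen, 1 root sheath, 1 epidermal and 1 hair keratin that hold the motif (KRT71, KRT10 and KRT31). On GRCh37 they lie at chr12:53320254-53320373, chr17:39041495-39041614, chr12:52914179-52914298, chr12:52946930-52947049, chr17:38978867-38978986 and chr17:39553861-39553980, in that order. The RefSeq start of KRT8 lies 21393 bases from its canonical GENCODE start.
KRT8: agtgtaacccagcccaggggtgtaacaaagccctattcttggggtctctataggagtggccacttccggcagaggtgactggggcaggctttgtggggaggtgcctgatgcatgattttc
KRT20: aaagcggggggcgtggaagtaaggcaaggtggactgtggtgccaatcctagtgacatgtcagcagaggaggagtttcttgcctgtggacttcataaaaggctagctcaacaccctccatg
KRT5: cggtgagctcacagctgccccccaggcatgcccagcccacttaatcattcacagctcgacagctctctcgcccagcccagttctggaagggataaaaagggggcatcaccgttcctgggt
KRT71: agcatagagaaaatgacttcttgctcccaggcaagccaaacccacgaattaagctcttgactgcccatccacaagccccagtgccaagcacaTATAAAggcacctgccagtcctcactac
KRT10: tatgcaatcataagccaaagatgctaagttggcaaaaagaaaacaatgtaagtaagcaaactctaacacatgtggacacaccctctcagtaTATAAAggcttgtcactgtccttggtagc
KRT31: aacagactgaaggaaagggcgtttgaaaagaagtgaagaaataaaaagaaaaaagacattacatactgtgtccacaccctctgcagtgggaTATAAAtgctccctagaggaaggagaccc
The motif TATAAA, the core of the TATA box at which the basal transcription machinery assembles, was searched on both strands of the whole 300 bases. It was found in 55.3% of the keratin entries and in 11.5% of all 35116 promoters. On the gene strand alone it was found in 19 of 38 keratin entries and in 7.33% of all promoters. Between 20 and 40 bases before the start, where a TATA box usually lies, it stood in 16 of 38 keratin entries and in 2.30% of all promoters. By group, it was on the gene strand in 9 of 14 hair, 6 of 8 root sheath and 3 of 7 stratified genes with an entry, and in neither KRT8, KRT20 nor KRT5. An entry was found for 14 of 17 hair and 8 of 9 root sheath genes, but for 1 of 3 luminal and 1 of 4 basal genes. The shares of the family therefore rest mostly on hair and root sheath genes. Entries are not independent, since KRT40 has more than 1 and the sequences of KRT37 and KRT38 are nearly the same. Only the exact letters were searched, so near forms such as cataaa in KRT20 and gataaa in KRT5 were not counted. For KRT8 the result covers its RefSeq start and not its canonical start. The full palindromic estrogen response element, made of GGTCA, a spacer of 3 bases and the reverse complement of GGTCA, was found in 0 of 38 entries and in 0.0570% of all promoters. GGTCA itself, which every full element holds, was found in 34.2% and 37.4%. These matches are descriptions of the letters in a window and not binding sites.

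During the E2 course the keratin bins moved within A. On chromosome 12, 6 of 9 bins scored above T0 after 1 h, 2 after 4 h, 6 after 16 h and 7 after 24 h, with median differences from T0 of 0.34, -0.47, 0.18 and 0.19. In percentile, 5 of these 9 bins were above T0 after 1 h, 2 after 4 h, 5 after 16 h and 3 after 24 h. The median percentile difference after 24 h was -0.34 points. No E2 time point moved all 9 bins one way. On chromosome 17, 6 of 7 bins scored above T0 after 1 h, 5 after 4 h, 5 after 16 h and 7 after 24 h, with medians of 0.34, 0.27, 0.20 and 1.20. In percentile, 3 of these 7 bins were above T0 after 1 h, 5 after 4 h, 2 after 16 h and 3 after 24 h, with 4 below it at T24. Those above at T24 were the bins of KRT25 to KRT28 with KRT10 (94.9 and 96.7), of KRT12, KRT20 and KRT23 (96.4 and 97.2), and of KRT39 with KRT40 (95.2 and 96.1). Among the 2655 bins with a T0 score in the range of the keratin bins, 58.0% scored above T0 after 1 h, 43.6% after 4 h, 51.4% after 16 h and 70.1% after 24 h, the last by a median of 0.50. Among all scored bins the share was 48.1 to 48.7%. In percentile, 1190 of the 2655 bins were above T0 after 1 h, 1225 after 4 h, 1185 after 16 h and 1126 after 24 h. The parental range of a bin had a median of 0.86 on chromosome 12 and 1.40 on chromosome 17, against 1.21 for those 2655 bins.

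Between T0 and TamR the 2 clusters differed. On chromosome 12 all 9 keratin bins were higher in TamR, by 0.53 to 2.50 with a median of 1.54, and the median percentile difference was 3.45 points. In 7 of the 9 the TamR score lay above the parental range. The bins whose score stayed inside it were the edges of the cluster, those of KRT80 and of KRT8 with KRT18. Among the chromosome 12 bins in A in all 6 libraries, 35.0% were above the parental range and 39.2% below it. Among the 2655 bins with a T0 score in the keratin range, 12.7% were above and 56.3% below. By percentile, all 9 keratin bins lay above the parental range, the KRT80 bin and the KRT8 and KRT18 bin included, where 35.2% of the chromosome 12 bins in A in all 6 libraries were above and 40.4% below. The KRT7 bin scored between 10.39 and 12.15 in the parental libraries and 13.15 in TamR. The bin of KRT73, KRT2, KRT1 and KRT77 scored 8.50, 8.84, 8.73, 9.80 and 9.44 in the parental libraries in order of time. Its TamR score was 2.50 above T0, the largest gain over T0 among the keratin bins. T0 was the lowest of these parental scores, and TamR was 1.21 above the highest. Over the highest parental score, the bin of KRT76 and KRT3 gained most, by 1.65. In each of these bins, the KRT7 bin included, the TamR value, from 1 library, lay above all 5 parental values.

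On chromosome 17 the TamR score was above T0 in 5 of 7 bins, with a median difference of 0.23 and a range from -1.28 to 1.94. It was above T0 in 49.6% of all scored bins of chromosome 17 and in 30.7% of the 2655 bins in the keratin score range. Against the parental mean in place of T0 the median was -0.0172, so no direction was given to this cluster. In 5 bins the TamR score was inside the parental range. The exceptions were the bin of the hair keratins KRT39 and KRT40, above it (13.13 against 11.19 to 12.59), and the KRT19 bin, below it. Of the chromosome 17 bins in A in all 6 libraries, 23.6% were above and 47.2% below their parental range, so 1 bin of 7 on each side is not a result about these keratins. The 3 KRTAP-only bins were all above the parental range, with a median TamR minus T0 difference of 1.25. Ranked by percentile, 5 rather than 2 of the 7 keratin bins lay outside the parental range, where 34.5% of the chromosome 17 bins in A in all 6 libraries were above and 39.8% below. The bins of KRT222 with KRT24, of KRT12, KRT20 and KRT23, of KRT39 with KRT40 and of KRT14 lay above. The KRT19 bin lay below. By percentile TamR was above T0 in 6 of the 7 bins, and in 1014 of the 2655 bins in the keratin score range.

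**Figure D4:**
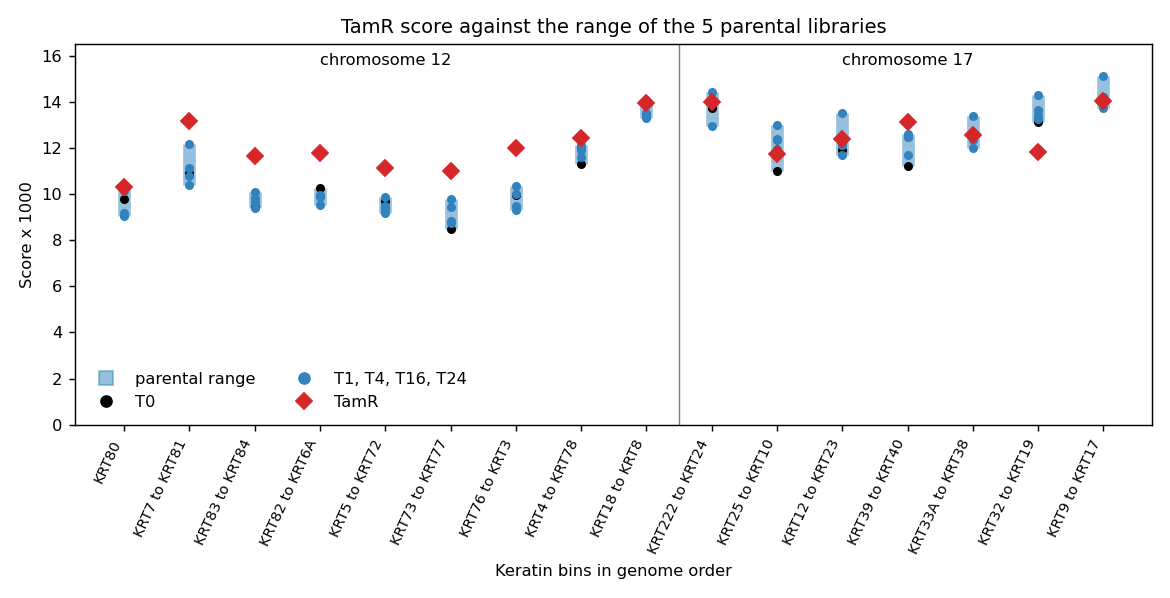
Score multiplied by 1000 of each of the 16 keratin bins in genome order, labelled by its first and last keratin gene, with the parental range as a blue bar, T0 in black, T1 to T24 in blue and TamR as red diamonds. On chromosome 12 the diamond is above the bar in 7 of 9 bins, and on chromosome 17 in 1 of 7, with the KRT32 to KRT19 bin below its bar.

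The gain on chromosome 12 was not particular to keratin bins. All 20 flanking bins scored above the parental range in TamR, with median differences from T0 of 1.74 on the left and 2.64 on the right. Within 20 bins of the cluster 39 of 40 bins were higher than at T0, and within 50 bins 73 of 100, whereas over all 1305 scored bins of chromosome 12 the share was 45.0% and the median difference was -0.25. On chromosome 17, 2 of the 20 flanking bins were above and 4 below the parental range.

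The stretch of continuous A around the chromosome 12 cluster was also longer in TamR. It measured 9.0 to 9.2 Mb in the parental libraries, ended at 55100000 on the right in each of them, and began between 45900001 and 46100001. In TamR it ran over 12.9 Mb, from 45500001 to 58400000. Between 55100001 and 58400000 lie 33 bins, of which 9 were in B at T0, 8 at T1, 9 at T4, 9 at T16, 7 at T24 and 0 in TamR. The lowest TamR score there was 0.52, close to the border, and the keratin bins themselves were 1.7 Mb or more from that end in every library. The chromosome 17 cluster lay in a stretch of A of 8.8 Mb in T0, T1, T16 and TamR and of 9.6 Mb in T4 and T24, and this stretch ended on both sides at bins without a score, so its full length is not known. The median stretch of A in a library was 0.5 to 0.7 Mb.

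**Figure D5:**
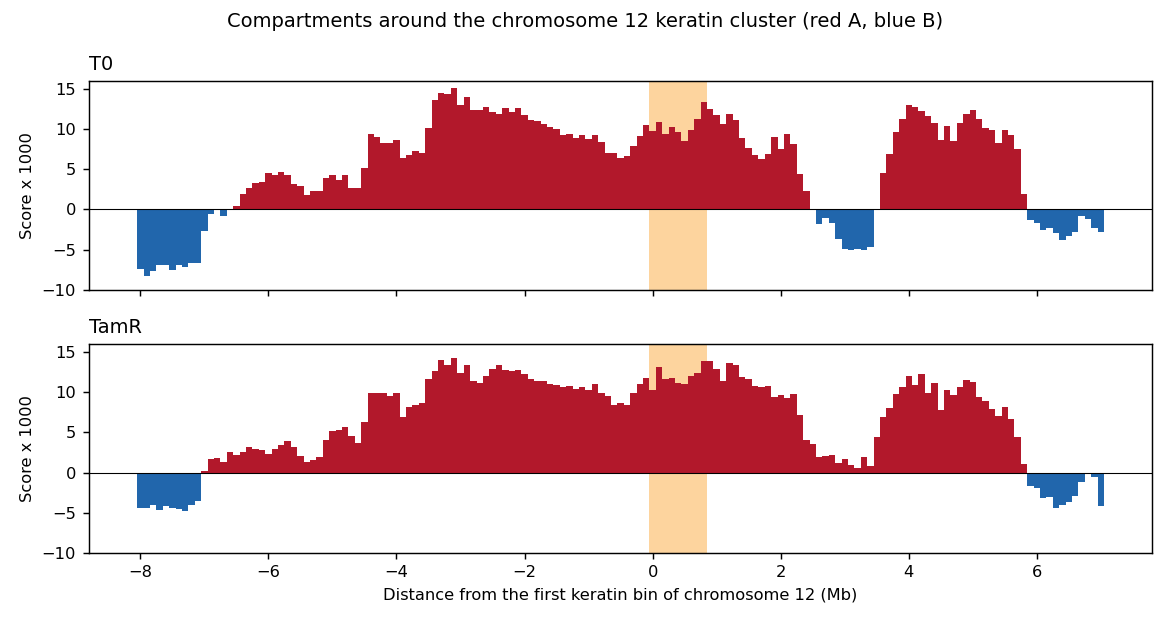
Score multiplied by 1000 of the 100 Kb bins around the chromosome 12 keratin cluster (orange) at T0 (top) and in TamR (bottom) against the distance in Mb from the first keratin bin, with compartment A in red and B in blue. The blue gap to the right of the cluster at T0 is red, at scores just above 0, in TamR.

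Base composition was compared with the scores between and within the clusters. The keratin bins of chromosome 12 had a median GC content of 49.1%, and those of chromosome 17 had 40.8%, although the latter scored higher at T0. Bins in A in all 6 libraries had a median GC content of 44.0%, and the 2655 bins in the keratin score range 48.7%. Across neighbouring bins, which share their library and are not replicates, Pearson's r between GC content and the T0 score was 0.10 over the 9 bins of the chromosome 12 cluster and 0.62 over 10 bins of the chromosome 17 cluster, the 3 KRTAP-only bins included.

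Genes that work with keratins gave a contrast. KRTAP genes encode the matrix proteins that bind hair keratins together. All 34 KRTAP genes of chromosome 17 (4 bins) and all 11 of chromosome 11 (4 bins) started in bins in A in all 6 libraries. Among all bins with a gene start, 62.7% were in A and 21.8% in B throughout. Of the 49 on chromosome 21 (11 bins), 16 were in A throughout, the KRTAP10 and KRTAP12 genes, at T0 percentiles of 95.6 to 98.1. The other 33, from KRTAP24-1 to KRTAP19-8, were in B throughout, at T0 percentiles of 0.02 to 10.6. KRTAP20-2, KRTAP20-3 and KRTAP21-3 shared the lowest of these bins, with a T0 score of -9.87 and a TamR score of -9.55. Hair genes were thus found near both ends of the genome-wide ranking in these breast cancer cells, KRTAP genes at both and hair keratins at the upper one.

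Desmosomes are the junctions to which keratin filaments attach. Of 16 desmosome and plakin genes, 8 were in A and 8 in B in all 6 libraries, and none changed sign. Named after their values were seen, the genes in B were PKP2 and the 7 desmosomal cadherins (DSC1 to DSC3 and DSG1 to DSG4), which lie beside each other on chromosome 18. JUP, the plakoglobin gene, starts in the right flank of the chromosome 17 cluster and was in A. Of 15 other intermediate filament genes, 11 were in A and 3 in B in all 6 libraries, the latter being VIM, the vimentin gene of mesenchymal cells, and the neurofilament genes NEFL and NEFM. BFSP2, a lens filament gene, was in A except at T4, where its score was -0.03. The 16 desmosome and plakin genes started in 14 bins and the 15 filament genes in 15. Of all bins with a gene start, each counted once however many genes it holds, 62.7% were in A and 21.8% in B throughout. A share per gene was not computed.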

How the data were processed

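TCC libraries of T47D cells, 1 per condition, were used. According to the methods of the paper, the authors aligned reads iteratively to hg19 with bowtie2, removed low-coverage bins, corrected the matrix iteratively, set contacts within chromosomes aside and computed the first eigenvector with HiCLib. The authors deposited this score per 100 Kb bin. A score of 0 was read as no value, and 27898 of 30376 bins had a score in all 6 libraries. The sum of squared scores was 0.998 to 0.999 in each library, so sizes are relative. No contact counts were used, and depth is unknown.

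Gene starts came from GENCODE lifted to GRCh37. Its chromosome lengths equal the last bin ends on all 23 chromosomes. Members, groups and lists were chosen with earlier results of these data known. Named were the luminal, basal and other simple keratins, the genes with the highest and lowest parental median of each other group and the outermost genes of each cluster. Others named were chosen after their values were seen. Alternatives were T0 replaced by each library, other scalings, references, smoothing, borders and gene-start rules. With 1 library per condition no test was made. Python 3.11.15, numpy 2.4.6, pandas 2.3.3 and matplotlib 3.10.9 were used, and the computation was tested on simulated tracks.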

Additional observations from a re-analysis of the deposited data

How the results depend on the processing

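No paired analysis was possible because the conditions were measured once each. Of 61 alternatives for 10 results, 45 left the value within the limit set for a change, 11 were labelled as moved and 5 reversed it. The 11 include the TamR minus T0 medians of both clusters in library SDs and in percentile points. Those are in other units, kept their sign and were not compared with a limit. The 25 alternatives of the 4 counts by sign of the keratin bins left them unchanged or within 1.5 times. These 25 are part of the 45. With all 16 bins in A in all 6 libraries, the counts in B and of sign changes are 0 by definition. The 4 counts are therefore not separate checks, and leaving out an E2 library could not change them. The starts of canonical transcripts were added as an alternative after seeing the data. The median TamR minus T0 difference of the chromosome 12 keratin bins was 0.26 library SDs, 3.45 percentile points and 1.89 against the parental mean. That of chromosome 17 was 0.0389 library SDs, 0.57 percentile points and -0.0172 against the parental mean, and by percentile 5 of its bins lay outside the parental range. The luminal minus basal difference was 0.29 at T1, 0.0465 at T16, -1.26 at T24 and 1.14 in TamR, 0.13 over distinct bins and -1.72 with touching neighbours averaged in. The luminal minus hair difference was 1.72 at T4, 1.43 at T16 and 3.19 over distinct bins, and stayed above 0. The luminal median over genes is the value of the bin that KRT8 and KRT18 share. On chromosome 12 alone, the bin of KRT8 and KRT18 was above the hair median in all 6 libraries. It was at 98.3 against 92.6 at T0 and at 99.2 against 96.7 in TamR. On chromosome 17 alone, KRT19 was above the hair median in each parental library. In TamR it was below, at 96.9 against 97.8. KRT19 shares its bin with the hair keratins KRT32, KRT35 and KRT36, so this comparison cannot separate luminal from hair genes. No stable order of luminal and hair keratins was shown over both chromosomes. For each of these the cause was not tested, and the first 2 units differ by construction. Depth and replicate spread are unknown, bins of 100 Kb hold up to 6 keratin genes, and differences between conditions are differences between single libraries.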
